A study of Mus musculus with 32 samples.

Results

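The 33 genes described here make up the cholesterol and fatty acid synthesis program, together with its regulators. They were taken by name, not by a threshold on measured values, from the 23284 genes listed in both deposited count tables. They comprised 16 sterol synthesis enzymes, 10 fatty acid and lipid synthesis enzymes and 7 regulators. RNA sequencing compared Oct4 -/- (KO; Oct4 is the pluripotency factor Pou5f1) with wild type (WT) C57BL/6 mice and cells. Lesions came from the brachiocephalic artery (BCA), a branch of the aortic arch, of 4 KO and 4 WT animals kept on Western diet for 18 weeks, and were a mixture of cell types. Cultures came from a single primary aortic smooth muscle cell line of each genotype, grown in hypoxia (1% oxygen) or normoxia and given POVPC, an oxidized phospholipid, or vehicle, with 3 libraries in each of the 8 groups. These groups were KO POVPC hypoxia, WT POVPC hypoxia, KO vehicle hypoxia, WT vehicle hypoxia, KO POVPC normoxia, WT POVPC normoxia, KO vehicle normoxia and WT vehicle normoxia. Because each genotype was a single line, genotype and line cannot be told apart in culture, and p-values there measure the spread between cultures of a line, which may be technical. How and in which cells Oct4 was deleted is not given in the sources used here.

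Cells build cholesterol from acetyl-CoA through the mevalonate pathway to squalene, which is oxidized, closed into a ring and trimmed to cholesterol. Squalene epoxidase (Sqle) and lanosterol demethylase (Cyp51) use molecular oxygen, as do the desaturases Scd1, Scd2, Fads1 and Fads2. Most of the enzymes are targets of the transcription factors encoded by Srebf1 and Srebf2, which Scap escorts out of the endoplasmic reticulum and which Insig1 and Insig2 retain there when sterols are plentiful. Srebf2 is best known for the sterol enzymes and Srebf1 for the fatty acid enzymes. Stard4 carries cholesterol inside the cell, and Mylip is a ubiquitin ligase induced by the oxysterol-sensing LXR factors that lowers cholesterol uptake. Smooth muscle cells in a lesion can fill with cholesterol and lose contractile proteins.

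Promoters of 8 members are shown because the sterol enzymes share the CCAAT box, the site of the factor NF-Y that works beside the Srebf proteins, and because they show the range of the program: Hmgcs1 carries the sterol regulatory element letters, Idi1, Mvk, Lss, Hsd17b7 and Insig1 rose strongly in hypoxia, and Elovl6 and Mylip departed from the rest. Each is the 250 bases before the transcription start in RefSeq (build GRCm38.p6), written 5′ to 3′ on the strand of the gene. Capitals mark CCAAT or its reverse complement ATTGG and, in Hmgcs1, the letters TCACNCCAC of the sterol regulatory element. Hmgcs1 (HMG-CoA synthase) lies at chr13:119690101-119690350 on the plus strand, Idi1 (isopentenyl diphosphate isomerase) at chr13:8885356-8885605 on plus, Mvk (mevalonate kinase) at chr5:114444019-114444268 on plus, and Lss (lanosterol synthase) at chr10:76531355-76531604 on plus. Hsd17b7 (a sterol ketoreductase) lies at chr1:169969206-169969455 on the minus strand, Insig1 at chr5:28071162-28071411 on plus, Elovl6 (a fatty acid elongase) at chr3:129532136-129532385 on plus and Mylip at chr13:45389492-45389741 on plus.
Hmgcs1: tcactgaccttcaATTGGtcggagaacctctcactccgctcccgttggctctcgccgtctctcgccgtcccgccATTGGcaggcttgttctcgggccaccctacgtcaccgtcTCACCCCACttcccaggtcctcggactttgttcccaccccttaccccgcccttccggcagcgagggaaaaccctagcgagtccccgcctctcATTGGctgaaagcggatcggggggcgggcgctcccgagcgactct
Idi1: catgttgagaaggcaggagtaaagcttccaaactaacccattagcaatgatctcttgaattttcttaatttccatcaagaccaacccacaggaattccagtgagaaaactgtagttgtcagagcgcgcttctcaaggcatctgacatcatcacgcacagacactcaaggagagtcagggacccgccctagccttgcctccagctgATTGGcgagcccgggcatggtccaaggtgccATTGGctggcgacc
Mvk: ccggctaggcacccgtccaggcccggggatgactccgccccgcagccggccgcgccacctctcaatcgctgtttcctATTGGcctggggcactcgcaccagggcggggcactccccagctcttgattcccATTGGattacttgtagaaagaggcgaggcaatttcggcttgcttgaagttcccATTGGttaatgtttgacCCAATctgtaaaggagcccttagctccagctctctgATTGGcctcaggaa
Lss: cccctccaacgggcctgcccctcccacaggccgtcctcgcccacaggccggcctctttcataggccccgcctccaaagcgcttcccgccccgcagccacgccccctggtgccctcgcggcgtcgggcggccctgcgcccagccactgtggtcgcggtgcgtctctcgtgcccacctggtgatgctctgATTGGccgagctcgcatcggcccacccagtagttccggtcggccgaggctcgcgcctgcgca
Hsd17b7: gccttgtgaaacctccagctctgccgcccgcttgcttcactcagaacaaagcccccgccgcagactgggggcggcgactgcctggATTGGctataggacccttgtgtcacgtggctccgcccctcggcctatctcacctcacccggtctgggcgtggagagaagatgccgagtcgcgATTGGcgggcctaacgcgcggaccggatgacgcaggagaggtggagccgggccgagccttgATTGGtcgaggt
Insig1: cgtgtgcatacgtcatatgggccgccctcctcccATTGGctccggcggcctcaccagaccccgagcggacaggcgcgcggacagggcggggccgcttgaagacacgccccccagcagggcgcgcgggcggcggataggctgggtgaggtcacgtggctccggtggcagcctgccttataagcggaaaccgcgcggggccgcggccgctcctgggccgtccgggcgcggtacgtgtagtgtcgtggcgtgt
Elovl6: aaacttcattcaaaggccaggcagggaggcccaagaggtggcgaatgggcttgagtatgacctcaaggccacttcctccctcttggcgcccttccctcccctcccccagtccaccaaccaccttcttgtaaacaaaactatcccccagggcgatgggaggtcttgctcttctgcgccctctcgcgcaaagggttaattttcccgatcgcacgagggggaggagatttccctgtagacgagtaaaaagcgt
Mylip: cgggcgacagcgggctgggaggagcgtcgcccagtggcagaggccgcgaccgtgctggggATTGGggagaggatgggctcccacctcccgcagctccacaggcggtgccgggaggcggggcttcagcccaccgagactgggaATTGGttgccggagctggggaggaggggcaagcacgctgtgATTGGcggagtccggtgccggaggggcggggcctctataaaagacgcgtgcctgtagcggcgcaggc

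Of the 33 members, 26 were in the promoter table, with 34 promoters among 32851 in all. Counted from 250 bases before to 50 after the start and on both strands, CCAAT was found in 75% of the 16 sterol enzyme promoters, belonging to 12 of the 13 genes with an entry, against 37.4% of all promoters. The exception was Acat2, the acetyl-CoA acetyltransferase of the first step. CCAAT was present in 42.9% of the 7 fatty acid enzyme promoters, those of Acly, Acss2 and Fasn, and in 54.5% of the 11 regulator promoters. The printed Elovl6 promoter held no CCAAT. The GC box GGGCGG was found in 81.2% of the sterol enzyme promoters, 42.9% of the fatty acid enzyme promoters and 81.8% of the regulator promoters, against 35.7% of all promoters. TCACNCCAC, the only form of the element searched, was present in Hmgcs1 alone among the members' promoters with an entry, against 1.24% of all promoters. Sqle, Fdps, Fdft1, Scd1, Scd2, Fads1 and Stard4 had no entry and were not searched. The E-box CACGTG was in 12.5% of the sterol enzyme and 27.3% of the regulator promoters, against 7.15% of all. These are letter matches, not measured binding.

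The deposited values were raw read counts per gene, printed below as CPM (counts of a gene per 1000000 counts of its library) scaled by the trimmed mean of M values. Totals were 6526099 to 11137414 counts in the 8 lesion libraries and 8063121 to 30231799 in the 24 culture libraries. Alignments that fit several places, per assigned alignment, ran from 0.825 to 1.04 in the lesions and from 0.743 to 9.24 in culture. The highest were 9.24 in WT POVPC hypoxia library 2, 8.07 in KO vehicle hypoxia library 3 and 5.79 in WT POVPC hypoxia library 1. The ribosomal RNA gene Rn45s held 1.07 to 2.96% of the counts in the lesions and 1.29 to 11.1% in culture. The culture table counted each mate of a pair and the lesion table counted pairs, so counts from the culture are not independent molecules. Pou5f1 had 0 to 3 counts in the lesions and 0 to 2 in culture, too few to check the genotype labels. In culture, the 6 smooth muscle markers summed to 24.9 to 71.3 CPM in the KO groups and to 25.9 to 367 CPM in the WT groups, where the WT vehicle normoxia libraries held 313 to 367 CPM. The 11 macrophage markers summed to 9.20 to 63.9 CPM, the 5 endothelial markers to 0.806 to 4.53 CPM and the 10 adipocyte markers to 1.33 to 13.2 CPM over all cultures. Of the macrophage markers Cd14 had the highest mean in every culture group, and C1qa, C1qb and Tyrobp had at most 2 counts in any culture library, as had Cdh5 of the endothelial and Adipoq of the adipocyte markers. The 8 proliferation markers summed to 187 to 217 CPM in the KO groups and 142 to 360 CPM in the WT groups. Hmgcs1 was listed at 0 counts in all 32 libraries. This allows up to 3 counts in each for reads that could be counted, and sets no limit on RNA whose reads fit several places. The annotation used for counting places Hmgcs1 in 2 copies with the same exon lengths on 13_random (114710-132325 and 308620-326235, mm9). That sequence is assigned to chromosome 13 without a known position on it. The part of the 2 copies in the 0 counts was not tested. The other 32 members were tested in both tables, among 14993 genes in the lesions and 14496 in culture.

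In vehicle-treated cells in normoxia, the level per kilobase of exon was highest for Scd2, a stearoyl-CoA desaturase, at 252.5 ± 22.4 RPKM in the KO line and 200.1 ± 8.44 RPKM in the WT line (SD, n = 3). Next in order stood Scd1 at 71.3 ± 3.65 and Acly at 69.5 ± 1.13 RPKM in the KO line, which lay within their spread of each other, and Acly at 94.1 ± 0.303 RPKM in the WT line. The lowest levels were Dhcr7, the last reductase of cholesterol synthesis, at 2.24 ± 0.239 RPKM in KO, and Acss2, an acetyl-CoA synthetase, at 2.72 ± 0.242 RPKM in WT, where Idi1 at 2.78 ± 0.239 and Dhcr7 at 2.91 ± 0.186 RPKM lay within its spread. In hypoxia the order changed: Scd2 at 655 ± 81.9 and Insig1 at 423 ± 24.7 RPKM led in the KO line. In the WT line Insig1 at 1234 ± 88.3, Scd2 at 1077 ± 112 and Acly at 971 ± 73.0 RPKM led, each within the summed SDs of its neighbour, ahead of Cyp51 at 640.3 ± 44.8 RPKM.

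**Figure D1:**
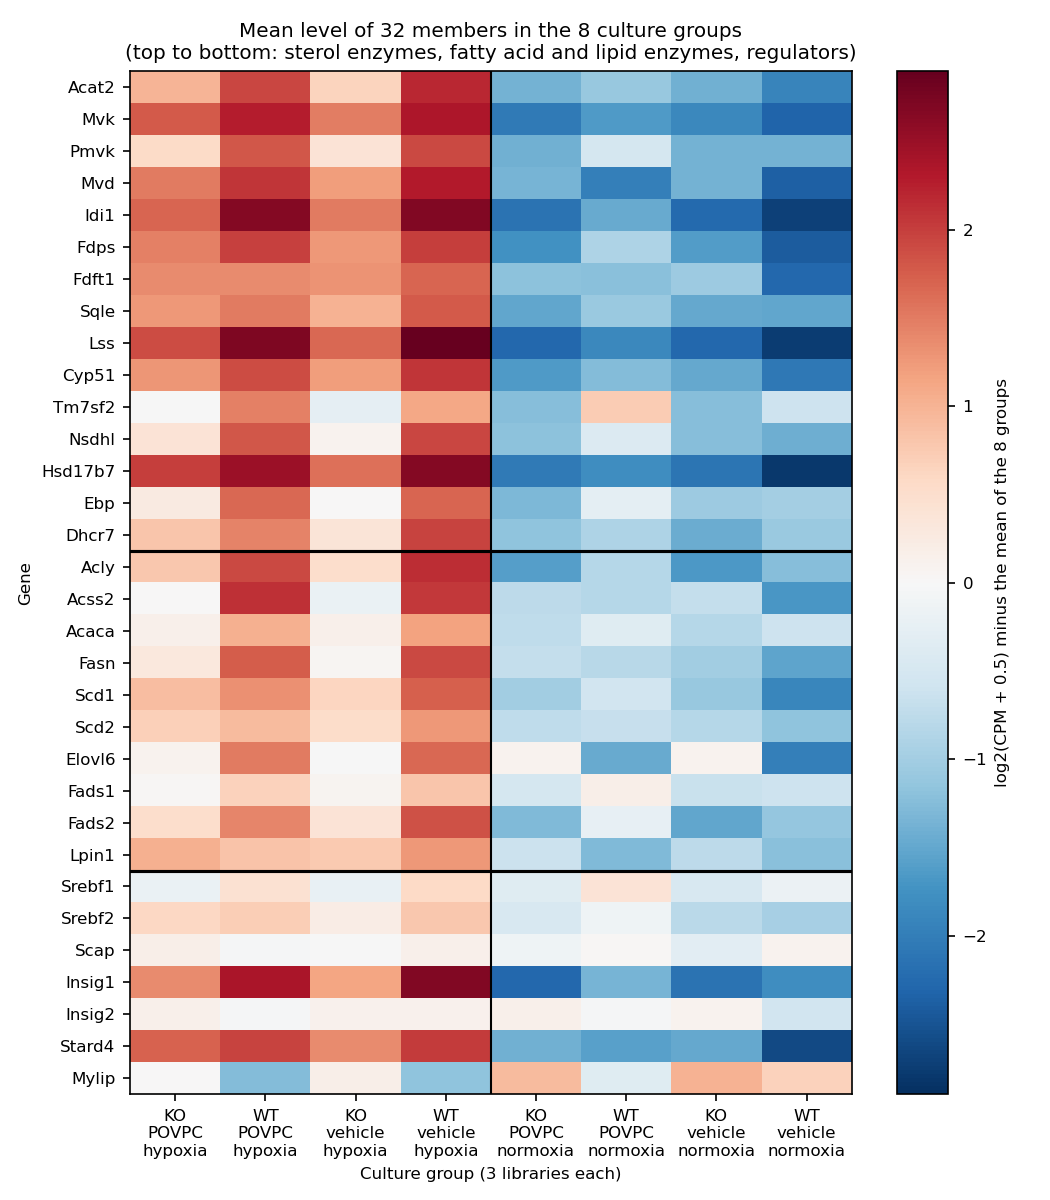
Mean level of the 32 tested members (rows) in the 8 culture groups (columns, 3 libraries each, hypoxia on the left), as log2(CPM + 0.5) minus the mean of the 8 groups for that gene; red is above and blue below that mean. Insig1, Stard4, and most sterol and fatty acid enzymes are deepest red in the WT vehicle hypoxia column, whereas Mylip is deepest blue in the WT hypoxia columns.

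Hypoxia raised nearly the whole program. All 15 tested sterol synthesis enzymes rose in hypoxia in both lines, with a median rise of 5.69-fold in the KO line and 17.5-fold in the WT line under vehicle. The summed level of the sterol enzymes averaged 5718 CPM in hypoxia and 878 CPM in normoxia in the KO line, a ratio of 6.51, and 10780 CPM in hypoxia and 625 CPM in normoxia in the WT line, a ratio of 17.2. Over all tested genes, 65.4% were called in the KO line, 32.6% higher and 32.8% lower, and 68.1% in the WT line, 32.8% higher and 35.3% lower, and the median of all genes was 0.02 and -0.03 on the log2 scale. The sterol medians were 2.51 in KO and 4.13 in WT. All tests were edgeR quasi-likelihood tests with Benjamini-Hochberg adjustment over all tested genes, and a gene was called at an adjusted p under 0.05.

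Among the members the largest fold in each line was that of Lss (chr10:75994372-76016679, mm9), which closes the sterol ring. Lss had 549.6, 508 and 494 CPM in KO hypoxia libraries, against 34.1, 34.3 and 31.5 CPM in KO normoxia libraries. In the WT line it had 1306, 1194 and 1137 CPM in hypoxia, against 24, 21.6 and 25.3 CPM in normoxia. The groups were far apart, a rise of 15.5-fold in KO and 51.3-fold in WT (log2 3.96 ± 0.13, adjusted p = 9.43e-19, and 5.68 ± 0.14, adjusted p = 1.65e-21; ± SE). Cyp51 gave the smallest p in both lines, with 1612, 1522 and 1465 CPM in KO hypoxia, against 269.9, 236 and 206 in KO normoxia. In WT cells Cyp51 had 3000, 2744 and 2618 CPM in hypoxia, against 159, 152 and 160.4 CPM in normoxia. Its log2 fold change was 2.69 ± 0.10 in KO (adjusted p = 2.94e-19) and 4.15 ± 0.11 in WT (adjusted p = 3.79e-23).

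Sqle, which makes the epoxide of squalene, had 975, 874 and 888 CPM in KO hypoxia, against 175, 158 and 148 CPM in KO normoxia. In WT cells it had 1631, 1523 and 1523 CPM in hypoxia, against 165, 152 and 159.8 CPM in normoxia, so that the lines overlapped in normoxia and not in hypoxia. The log2 fold change of Sqle was 2.51 ± 0.10 in KO (adjusted p = 5.29e-19) and 3.29 ± 0.10 in WT (adjusted p = 1.19e-21). Idi1, which interconverts the isoprenoid building blocks, had 171, 152 and 147 CPM in KO hypoxia, against 12.2, 11.4 and 9.96 CPM in KO normoxia. In WT cells Idi1 had 390.4, 338 and 333 CPM in hypoxia, against 7.2, 8.23 and 8.49 CPM in normoxia. Idi1, among the lowest members per length in normoxia, rose by 3.81 ± 0.14 in KO (adjusted p = 6.65e-18) and 5.47 ± 0.15 in WT (adjusted p = 1.06e-20) on the log2 scale. Acat2 had 144, 126 and 122 CPM in KO hypoxia, against 31.4, 32.6 and 31.4 CPM in KO normoxia. In WT cells Acat2 had 418, 383 and 360.1 CPM in hypoxia, against 20.9, 23.9 and 21.5 CPM in normoxia. It rose by 2.05 ± 0.10 in KO (adjusted p = 2.01e-16) and 4.13 ± 0.11 in WT (adjusted p = 6.81e-23) on the log2 scale, and the 3 WT hypoxia libraries all lay above the 3 KO hypoxia libraries.

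The other sterol enzymes rose in both lines too. Hsd17b7 had 552, 479 and 517 CPM in KO hypoxia, against 41.9, 37 and 38.1 CPM in KO normoxia. In WT cells it had 1241, 980.3 and 1013 CPM in hypoxia, against 26.8, 22.2 and 23.2 CPM in normoxia. It rose 13.2-fold in KO and 44.8-fold in WT. Mevalonate kinase (Mvk) rose 10.3-fold in KO and 25.8-fold in WT, the decarboxylase Mvd 6.06-fold and 26.7-fold, and phosphomevalonate kinase (Pmvk) 3.49-fold and 10.2-fold. Farnesyl diphosphate synthase (Fdps) rose 7.39-fold in KO and 21.6-fold in WT. Squalene synthase (Fdft1) rose 5.12-fold and 15.9-fold, but 27% of its exon bases overlap Ctsb on the opposite strand and the counts were unstranded. Reads that overlapped several genes were left unassigned as ambiguous, so reads in that stretch were counted to neither gene. Smaller overlaps were found for Lss (6.06% of exon bases), Acss2 (3.99%) and Srebf1 (2.49%) with genes on the opposite strand, and for Scd2 (1.12%) and Tm7sf2 (0.609%) with genes on the same strand. The late enzymes Nsdhl, Ebp and Dhcr7 rose 2.55-fold, 2.12-fold and 3.69-fold in KO, and 10.4-fold, 6.39-fold and 8.6-fold in WT. The sterol reductase Tm7sf2 rose least in both lines, 2.02-fold in KO and 3.37-fold in WT, with 17.1, 19.1 and 17.6 CPM in KO hypoxia against 9.94, 8.81 and 7.92 CPM in KO normoxia.

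**Figure D2:**
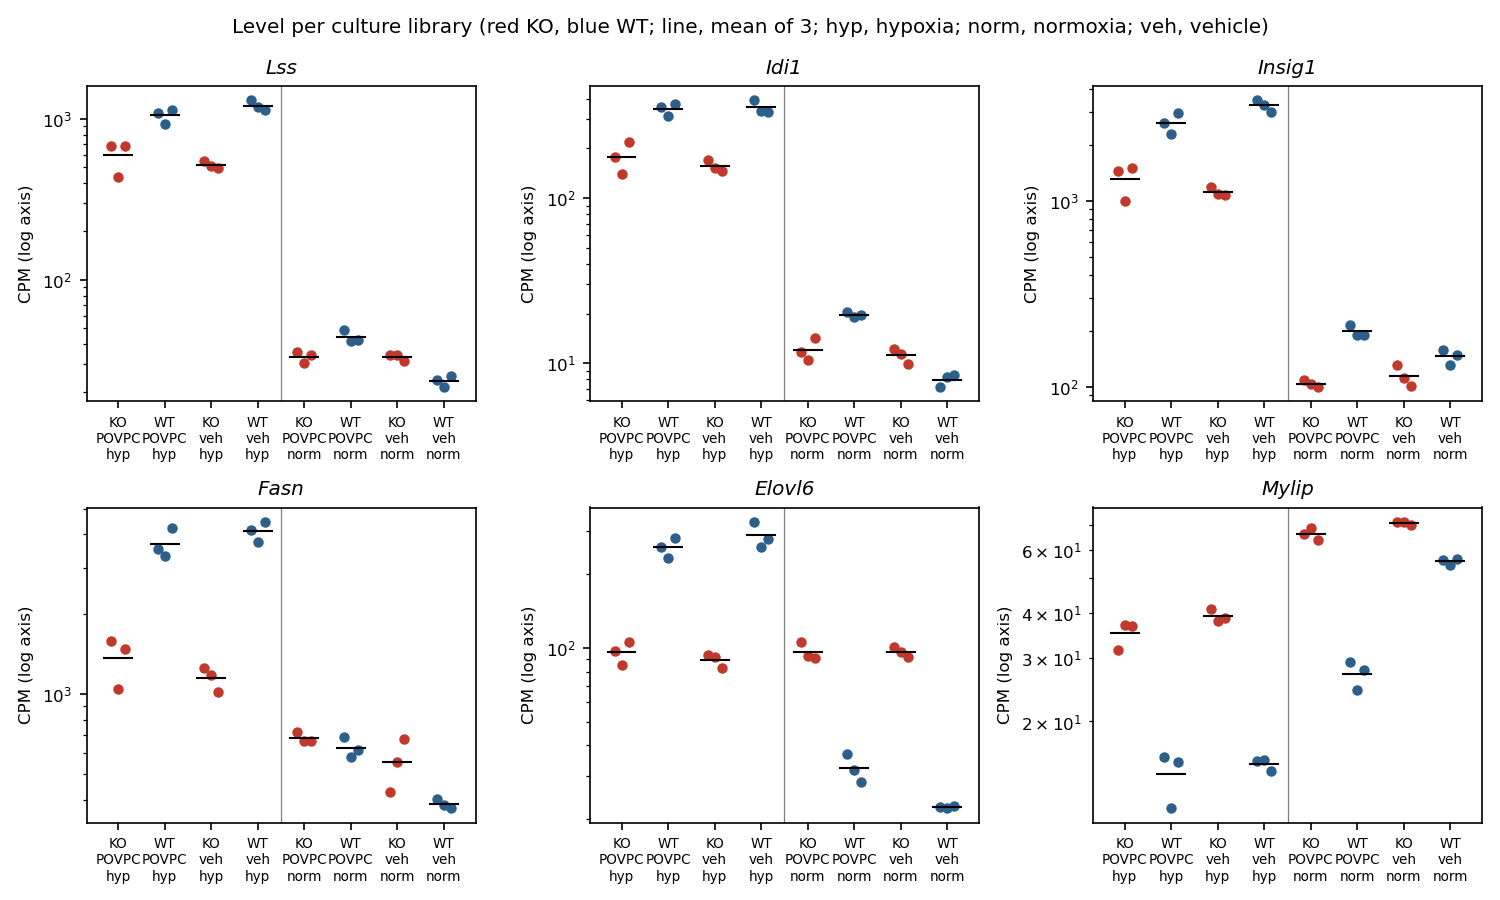
Level of Lss, Idi1, Insig1, Fasn, Elovl6 and Mylip in every culture library, in CPM on a log axis, hypoxia groups on the left of each panel (red, KO; blue, WT; line, mean of 3 libraries). Lss, Idi1 and Insig1 stand higher in all hypoxia groups, Elovl6 does so in WT cells and not in KO cells, and Mylip is lowest in WT hypoxia.

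The fatty acid and lipid enzymes rose by a smaller median than the sterol enzymes. In vehicle, 9 of 10 rose in the KO line with a median of 1.22 and 10 of 10 in the WT line with a median of 3.17 on the log2 scale. Their summed level averaged 7931 CPM in hypoxia and 2949 CPM in normoxia in KO cells, a ratio of 2.69, and 18310 CPM in hypoxia and 2394 CPM in normoxia in WT cells, a ratio of 7.65. ATP citrate lyase (Acly), which makes cytosolic acetyl-CoA, had 1495, 1363 and 1285 CPM in KO hypoxia, against 306, 304 and 313 CPM in KO normoxia. In WT cells it had 4659, 4032 and 4209 CPM in hypoxia, against 418, 415 and 417 CPM in normoxia. Acly rose by 2.17 ± 0.11 in KO (adjusted p = 2.69e-16) and 3.37 ± 0.11 in WT (adjusted p = 2.71e-20) on the log2 scale, with no overlap of groups. Fasn, fatty acid synthase, had 1256, 1176 and 1015 CPM in KO hypoxia, against 428, 554 and 674 CPM in KO normoxia. In WT cells Fasn had 4158, 3752 and 4465 CPM in hypoxia, against 400.3, 382 and 370.5 CPM in normoxia. It rose 2.08-fold in KO (log2 1.06 ± 0.15, adjusted p = 1.73e-06) and 10.7-fold in WT (log2 3.42 ± 0.16, adjusted p = 2.44e-14).

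Elovl6 (chr3:129235304-129341411, mm9), which elongates palmitate, was the member whose hypoxia response differed most between the lines. It had 93.6, 92.2 and 83 CPM in KO hypoxia, against 101, 96 and 92.1 CPM in KO normoxia. In WT cells it had 328, 259.7 and 279 CPM in hypoxia, against 22.4, 22.1 and 22.6 CPM in normoxia. Its KO groups overlapped and did not pass the test (log2 -0.10 ± 0.09, adjusted p = 0.36), whereas it rose 12.9-fold in WT (log2 3.69 ± 0.10, adjusted p = 1.82e-22). Acss2 had 21.6, 23.6 and 22 CPM in KO hypoxia, against 16.8, 16.2 and 14.3 CPM in KO normoxia. In WT cells Acss2 had 119.6, 109.9 and 93.2 CPM in hypoxia, against 7.52, 8.46 and 7.12 CPM in normoxia. It rose 1.42-fold in KO (log2 0.51 ± 0.15, adjusted p = 0.004) and 13.9-fold in WT (log2 3.80 ± 0.15, adjusted p = 3.09e-17).

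Among the desaturases, the neighbouring genes Scd1 and Scd2 on chromosome 19 rose 3.3-fold and 2.59-fold in KO, and 12.3-fold and 5.38-fold in WT. Fads2, which starts the desaturation of polyunsaturated fatty acids, had 185, 166 and 156 CPM in KO hypoxia, against 42, 48.3 and 45.2 CPM in KO normoxia. In WT cells Fads2 had 474, 453 and 464 CPM in hypoxia, against 61.2, 56.9 and 60.2 CPM in normoxia. It rose by 1.90 ± 0.10 in KO (adjusted p = 2.12e-15) and 2.96 ± 0.11 in WT (adjusted p = 1.1e-19) on the log2 scale. Its neighbour Fads1 rose 1.66-fold in KO and 2.66-fold in WT. Acaca, the acetyl-CoA carboxylase that commits carbon to fatty acids, rose 1.95-fold in KO and 3.44-fold in WT. Lpin1, a phosphatidate phosphatase, rose 2.91-fold in KO (log2 1.54 ± 0.12, adjusted p = 5.12e-11) and 5.66-fold in WT (log2 2.50 ± 0.13, adjusted p = 3.46e-15).

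Of the 7 regulators, 5 rose and Mylip fell in each line under vehicle. Insig1 had 1194, 1086 and 1077 CPM in KO hypoxia, against 131, 111 and 101 CPM in KO normoxia. In WT cells Insig1 had 3481, 3304 and 3018 CPM in hypoxia, against 158, 131 and 149 CPM in normoxia. Insig1, itself a known Srebf target, rose by 3.29 ± 0.13 in KO (adjusted p = 8.11e-17) and 4.48 ± 0.14 in WT (adjusted p = 3.2e-19) on the log2 scale. Stard4 had 178, 165 and 156 CPM in KO hypoxia, against 20.5, 24 and 23.3 CPM in KO normoxia. In WT cells Stard4 had 280.2, 258 and 259.5 CPM in hypoxia, against 12.4, 8.9 and 9.0 CPM in normoxia. It rose by 2.88 ± 0.11 in KO (adjusted p = 1.18e-18) and 4.72 ± 0.12 in WT (adjusted p = 7e-23) on the log2 scale.

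The transcription factor genes themselves changed by smaller folds than most of the enzymes. Srebf2 had 221, 206 and 179 CPM in KO hypoxia, against 83.8, 105 and 115 CPM in KO normoxia. In WT cells Srebf2 had 295, 269.9 and 326 CPM in hypoxia, against 94.7, 83.7 and 86.8 CPM in normoxia. It rose by 1.00 ± 0.13 in KO (adjusted p = 3.41e-07) and 1.75 ± 0.13 in WT (adjusted p = 2.52e-11) on the log2 scale. Srebf1 rose by 0.24 ± 0.08 in KO (adjusted p = 0.0095) and 0.75 ± 0.08 in WT (adjusted p = 1.5e-09). Scap passed the test in KO alone, with 0.29 ± 0.10 (adjusted p = 0.013), against 0.06 ± 0.10 in WT (adjusted p = 0.63). Insig2 passed in WT alone, with 0.00 ± 0.08 in KO (adjusted p = 0.97) and 0.69 ± 0.07 in WT (adjusted p = 2.74e-09). Mylip (chr13:45485111-45507309, mm9) went the other way, with 41.1, 38 and 38.6 CPM in KO hypoxia, against 71.3, 71.6 and 70.2 CPM in KO normoxia. In WT cells Mylip had 15.5, 15.7 and 14.6 CPM in hypoxia, against 56.2, 54.3 and 56.4 CPM in normoxia. It fell by 0.86 ± 0.09 in KO (adjusted p = 8.96e-10) and by 1.87 ± 0.09 in WT (adjusted p = 4.57e-17) on the log2 scale.

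**Figure D3:**
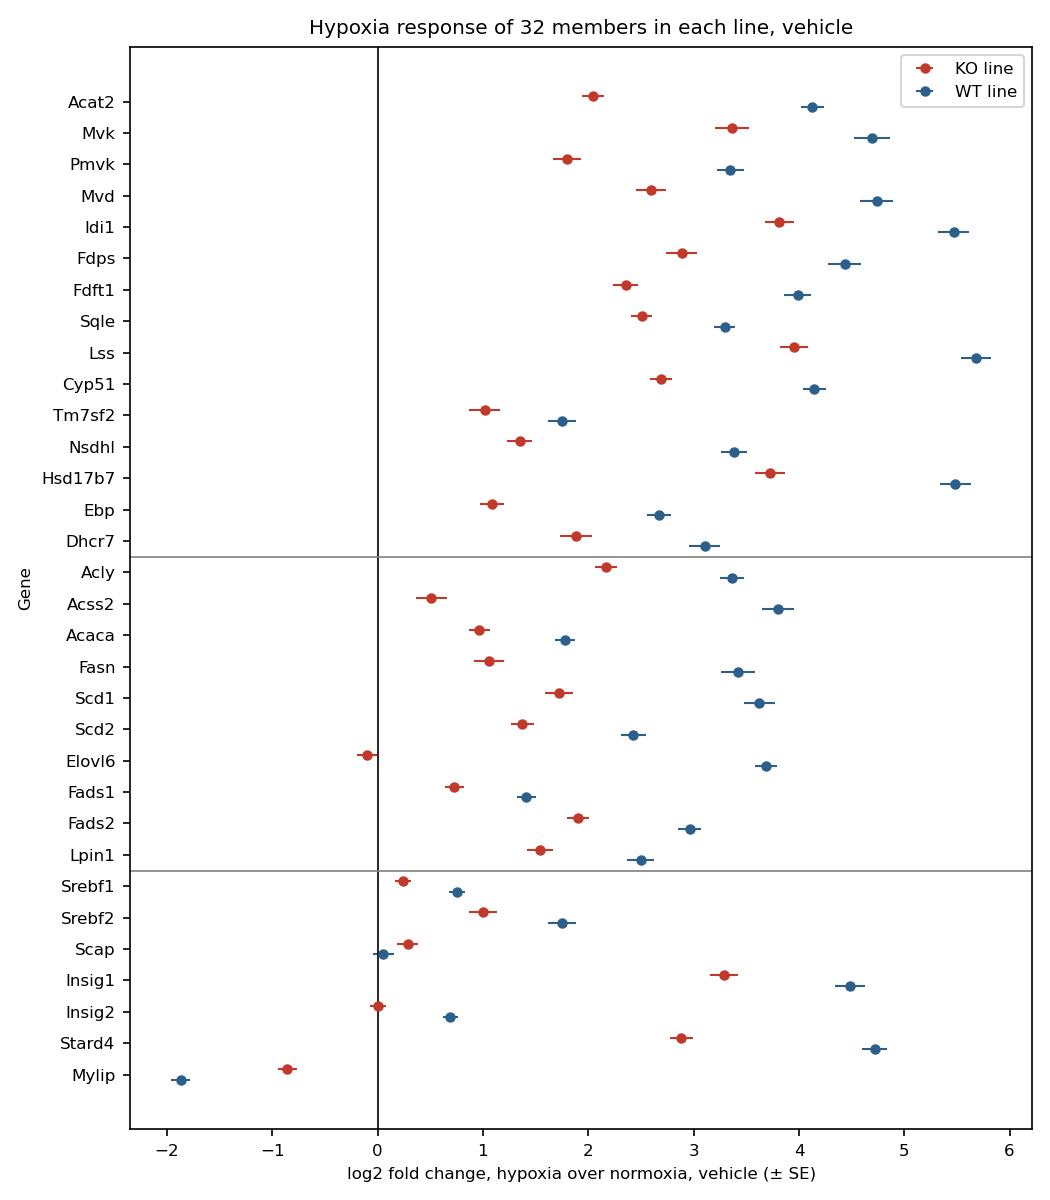
Hypoxia response of the 32 tested members under vehicle, as log2 fold change of hypoxia over normoxia with its SE (red, KO line; blue, WT line; sterol enzymes at the top, then fatty acid enzymes, then regulators). Every sterol enzyme lies right of 0 in both lines and further right in WT, Elovl6 lies at 0 in KO and at 3.69 in WT, and Mylip lies left of 0.

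The rise was also present under POVPC. With POVPC in both arms, all 15 sterol enzymes rose in hypoxia in both lines, with medians of 2.76 in KO and 2.87 in WT on the log2 scale. Over all genes, 68.5% were called in KO, 34.5% higher and 33.9% lower, and 66.1% in WT, 31.8% higher and 34.3% lower, and the all-gene medians were 0.03 and -0.02. In KO cells the sterol enzymes with the smallest p were Cyp51 with 2.93 ± 0.10 (adjusted p = 4e-20), Sqle with 2.76 ± 0.10 (adjusted p = 5.67e-20), Lss with 4.17 ± 0.13 (adjusted p = 2.8e-19) and Idi1 with 3.88 ± 0.14 (adjusted p = 2.93e-18). In WT cells they were Cyp51 with 3.16 ± 0.10 (adjusted p = 1.06e-20), Acat2 with 3.06 ± 0.11 (adjusted p = 3.21e-20), Lss with 4.58 ± 0.14 (adjusted p = 6.27e-20) and Sqle with 2.58 ± 0.10 (adjusted p = 2.68e-19). Of the fatty acid enzymes, 9 of 10 rose in KO (median 1.21), led by Acly with 2.38 ± 0.11 (adjusted p = 3.1e-17), Fads2 with 1.79 ± 0.10 (adjusted p = 5.06e-15), Lpin1 with 1.68 ± 0.12 (adjusted p = 6.32e-12) and Scd2 with 1.41 ± 0.11 (adjusted p = 1.27e-11), and Elovl6 gave -0.01 ± 0.09 (adjusted p = 0.95). In WT, 10 of 10 rose (median 2.00), led by Elovl6 with 3.00 ± 0.10 (adjusted p = 1.71e-20), Acly with 2.74 ± 0.11 (adjusted p = 2.12e-18), Acss2 with 3.00 ± 0.15 (adjusted p = 2.5e-15) and Fads2 with 1.67 ± 0.10 (adjusted p = 2.85e-14). Stard4 rose by 3.15 ± 0.11 in KO and 3.57 ± 0.11 in WT, Insig1 by 3.66 ± 0.13 and 3.73 ± 0.14, and Srebf2 by 1.08 ± 0.13 and 0.84 ± 0.13. Mylip fell by 0.91 ± 0.09 in KO and by 0.90 ± 0.10 in WT. Scap and Srebf1 also rose in KO, by 0.29 ± 0.10 and 0.18 ± 0.08, whereas Scap, Srebf1 and Insig2 did not pass in WT.

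Outside the 33 members, the other fatty acid and lipid synthesis genes moved in both directions. Of 24 tested, 13 rose and 6 fell in hypoxia in KO vehicle cells and 17 rose and 3 fell in WT vehicle cells. With POVPC, 14 rose and 6 fell in KO and 14 rose and 7 fell in WT. Acetoacetyl-CoA synthetase (Aacs) rose by 2.49 in KO and 3.72 in WT under vehicle on the log2 scale, and the acyl-CoA synthetase Acsl3 by 1.43 and 3.20. Gpam, which starts glycerolipid synthesis, fell by 0.97 in KO. Of 13 other sterol genes, 7 rose and 3 fell in KO vehicle cells and 7 rose and 2 fell in WT vehicle cells. Of the 4 tested LXR factors and targets, 2 rose and 1 fell in KO and 3 rose and 1 fell in WT. The sterol exporter Abca1 fell by 0.40 in KO and by 1.91 in WT. The summed smooth muscle markers were 53.3 to 56.5 CPM in hypoxia and 63.3 to 71.3 CPM in normoxia in KO vehicle cells. In WT vehicle cells they were 58.3 to 70.3 CPM in hypoxia and 313 to 367 CPM in normoxia. The proliferation markers were 194 to 206 CPM in hypoxia and 194 to 217 CPM in normoxia in KO vehicle cells, and 282 to 322 CPM in hypoxia and 142 to 161 CPM in normoxia in WT vehicle cells. The part of these changes in the members' response was not tested. With library size alone as the scaling, the all-gene median of the WT vehicle response moved to -0.21 and genes called higher were 36.4% of the calls, against 48.1% with the scaling used here.

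The response was smaller in the KO line under vehicle. The test of the difference itself (hypoxia response in KO minus that in WT) called 15 of 15 sterol enzymes lower, with a median of -1.59, and 10 of 10 fatty acid enzymes lower, with a median of -1.13 on the log2 scale. Genes called lower were 19.9% and genes called either way 39.1% of all tested genes, and the all-gene median was 0.03. The smallest p among the sterol enzymes were those of Acat2 with -2.08 ± 0.14 (adjusted p = 1.57e-12), Nsdhl with -2.04 ± 0.17 (adjusted p = 2.32e-10), Cyp51 with -1.45 ± 0.14 (adjusted p = 1.03e-09) and Ebp with -1.59 ± 0.15 (adjusted p = 3.49e-09), where Nsdhl is a sterol dehydrogenase and Ebp a sterol isomerase. Among the fatty acid enzymes they were those of Elovl6 with -3.79 ± 0.14 (adjusted p = 2.49e-18), Acss2 with -3.29 ± 0.21 (adjusted p = 3.26e-12), Fasn with -2.37 ± 0.21 (adjusted p = 7.63e-09) and Scd1 with -1.90 ± 0.19 (adjusted p = 2.05e-08). Of the regulators, 5 were lower, among them Stard4 with -1.84 ± 0.15 (adjusted p = 1.19e-10), Insig1 with -1.19 ± 0.17 (adjusted p = 4.98e-06) and Insig2 with -0.69 ± 0.11 (adjusted p = 5.95e-06). Mylip was higher, with 1.01 ± 0.12 (adjusted p = 1.32e-07), as its fall was smaller in KO, and Scap gave 0.23 ± 0.14 (adjusted p = 0.19). Of the 24 other fatty acid genes, 2 were higher and 17 lower in this contrast, and of the 13 other sterol genes, 1 was higher and 5 lower.

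With POVPC in both arms, the difference passed the test for 11 members. Of the sterol enzymes, 4 were lower in KO, namely Mvd with -1.21 ± 0.19 (adjusted p = 3.33e-05), Acat2 with -0.69 ± 0.14 (adjusted p = 0.000328), Nsdhl with -0.58 ± 0.16 (adjusted p = 0.0074) and Ebp with -0.40 ± 0.15 (adjusted p = 0.048), and Tm7sf2 was higher with 0.54 ± 0.19 (adjusted p = 0.032). Genes called lower were 14.4% and genes called higher 15.7% of all tested genes. The sterol median was -0.26 and the all-gene median 0.04. Of the fatty acid enzymes, 5 were lower, led by Elovl6 with -3.00 ± 0.14 (adjusted p = 3.2e-16), Acss2 with -2.22 ± 0.20 (adjusted p = 3.77e-09), Fasn with -1.56 ± 0.21 (adjusted p = 4.73e-06) and Acaca with -0.51 ± 0.13 (adjusted p = 0.0039), and Lpin1 gave -0.46 ± 0.17 (adjusted p = 0.046). Stard4 was the regulator called, with -0.42 ± 0.15 (adjusted p = 0.030). The sterol count was 3 without library 2 or 3 of WT POVPC normoxia, library 1 of KO POVPC normoxia or library 1 of WT POVPC hypoxia. The regulator count was 0 with library size alone, without library 3 of WT POVPC normoxia, library 1 or 3 of KO POVPC normoxia or library 2 of KO POVPC hypoxia, and 2 without library 2 of WT POVPC normoxia. The sterol sums rose by a ratio of 7.90 in KO and 8.52 in WT, and the fatty acid enzyme sums by 2.80 and 4.10.

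Set side by side at matched treatment and oxygen, the lines changed order with oxygen under vehicle. In hypoxia all 15 sterol enzymes were lower in KO cells, and their sum stood at 53.0% of that in WT cells. In normoxia 9 were higher and 2 lower in KO cells, and the sum stood at 140% of the WT sum. Over all genes, 59.9% were called in hypoxia, 30.4% lower, and 60.6% in normoxia, 29.8% higher and 30.8% lower. The same 9 sterol enzymes and 6 fatty acid enzymes were both higher in normoxia and lower in hypoxia. In hypoxia the proliferation markers summed to 194 to 206 CPM in KO and 282 to 322 CPM in WT cells, and the Schwann cell markers, mostly Pmp22, to 208 to 257 CPM in KO and 606 to 681 CPM in WT cells, with no overlap, and their part in the difference was not tested. These comparisons use the same groups as the hypoxia responses above and are no independent measurement of them.

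In hypoxia with vehicle, the sterol enzymes with the smallest p were Acat2 with -1.56 ± 0.10 (adjusted p = 7e-14), Nsdhl with -1.84 ± 0.12 (adjusted p = 3.43e-13), Ebp with -1.67 ± 0.11 (adjusted p = 3.74e-13) and Pmvk with -1.53 ± 0.12 (adjusted p = 1.14e-11), KO over WT on the log2 scale. Nsdhl, for example, had 67.8, 63.8 and 55.9 CPM in KO cells, against 235, 227 and 213 CPM in WT cells. Ebp had 89, 80.2 and 82.7 CPM in KO cells, against 294, 281 and 229 CPM in WT cells, and Pmvk had 33.5, 29.9 and 33.5 CPM against 100, 98 and 81.1 CPM. No KO library reached a WT library for any of these, and the sterol median was -1.17, against 0.01 over all genes. All 10 fatty acid enzymes were lower (median -1.28), led by Elovl6 with -1.69 ± 0.10 (adjusted p = 5.79e-15), Acly with -1.64 ± 0.10 (adjusted p = 1.36e-13), Acss2 with -2.26 ± 0.14 (adjusted p = 6.57e-13) and Fads2 with -1.46 ± 0.10 (adjusted p = 7.22e-13). Of the regulators, 4 were lower, Insig1 with -1.55 ± 0.12 (adjusted p = 8.77e-11), Srebf1 with -0.79 ± 0.08 (adjusted p = 1.05e-09), Stard4 with -0.67 ± 0.10 (adjusted p = 1.84e-06) and Srebf2 with -0.55 ± 0.13 (adjusted p = 0.000681), and Mylip was higher with 1.37 ± 0.09 (adjusted p = 1.89e-13). Of 24 other fatty acid genes, 2 were higher and 16 lower in KO cells. The LXR factor Nr1h3 was lower by 3.49 on the log2 scale.

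In normoxia with vehicle, the sterol enzymes higher in KO cells were led by Fdft1 with 1.24 ± 0.12 (adjusted p = 1.01e-09), Mvd with 1.05 ± 0.14 (adjusted p = 1.24e-06), Cyp51 with 0.59 ± 0.10 (adjusted p = 5.39e-06) and Fdps with 0.81 ± 0.14 (adjusted p = 2.42e-05). Mvd had 24.9, 21.3 and 19 CPM in KO cells, against 11.6, 9.22 and 10.6 CPM in WT cells, and Fdps had 66.5, 57.9 and 43 CPM, against 32.5, 28.7 and 34.3 CPM. Both sets of libraries lay apart. Tm7sf2 and Dhcr7 were lower, with -0.65 ± 0.14 (adjusted p = 0.000289) and -0.37 ± 0.16 (adjusted p = 0.047), and the call on Dhcr7 was lost without any single one of these 6 libraries, without the filter on low counts, and with the culture counts halved. Of the fatty acid enzymes, 6 were higher, led by Elovl6 with 2.11 ± 0.10 (adjusted p = 5.13e-17), Acss2 with 1.03 ± 0.15 (adjusted p = 2.46e-06) and Scd1 with 0.79 ± 0.13 (adjusted p = 1.58e-05), and Acly and Fads2 were lower with -0.44 ± 0.10 (adjusted p = 0.00056) and -0.39 ± 0.10 (adjusted p = 0.0015). Stard4, Insig2 and Mylip were higher by 1.16 ± 0.11, 0.68 ± 0.08 and 0.35 ± 0.08, and Scap, Srebf1 and Insig1 were lower by 0.40 ± 0.10, 0.28 ± 0.08 and 0.35 ± 0.12. With library size alone as the scaling the all-gene median moved to -0.16 and higher genes were 37.0% of the calls, against 49.1%, and Mylip no longer passed. The smooth muscle markers in these groups were those given above, 63.3 to 71.3 CPM in KO and 313 to 367 CPM in WT, and the proliferation markers 194 to 217 CPM in KO and 142 to 161 CPM in WT, and their part in the difference was not tested.

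With POVPC the KO line was lower at both oxygen levels for most enzymes. In hypoxia, 14 of 15 sterol enzymes were lower in KO cells (median -0.66; 57.6% of all genes called, 30% higher and 27.6% lower), led by Ebp with -1.43 ± 0.11 (adjusted p = 1.08e-11), Nsdhl with -1.40 ± 0.11 (adjusted p = 7.59e-11), Tm7sf2 with -1.49 ± 0.13 (adjusted p = 1.86e-10) and Pmvk with -1.28 ± 0.12 (adjusted p = 4.07e-10), and Fdft1 gave 0.01 ± 0.11 (adjusted p = 0.93). Of the fatty acid enzymes, 8 were lower (median -0.91), led by Elovl6 with -1.43 ± 0.10 (adjusted p = 2.6e-13), Acss2 with -2.15 ± 0.14 (adjusted p = 1.7e-12), Acly with -1.14 ± 0.10 (adjusted p = 2.67e-10) and Acaca with -0.89 ± 0.10 (adjusted p = 3.79e-09), and Scd2 and Lpin1 did not pass. In normoxia, 11 sterol enzymes were lower, led by Tm7sf2 with -2.03 ± 0.14 (adjusted p = 4.19e-13), Ebp with -1.02 ± 0.11 (adjusted p = 6.28e-09), Pmvk with -0.92 ± 0.13 (adjusted p = 6.64e-07) and Nsdhl with -0.82 ± 0.12 (adjusted p = 1.19e-06), and Mvd was higher with 0.64 ± 0.14 (adjusted p = 0.000447). Tm7sf2 had 7.98, 7.88 and 10.8 CPM in KO cells given POVPC in normoxia, against 30.2, 36.6 and 42 CPM in WT cells. Genes called lower in normoxia were 30.7% and genes called higher 29.5%. Elovl6 and Lpin1 were higher, by 1.58 ± 0.10 and 0.66 ± 0.13, and 5 fatty acid enzymes lower, led by Fads2 with -1.05 ± 0.10 (adjusted p = 6.32e-10), Fads1 with -0.67 ± 0.09 (adjusted p = 1.94e-07) and Acly with -0.78 ± 0.10 (adjusted p = 2.16e-07). Mylip was higher in KO cells by 1.27 ± 0.10 in hypoxia and 1.29 ± 0.09 in normoxia. Srebf1 was lower by 0.63 ± 0.08 in hypoxia and 0.76 ± 0.08 in normoxia, and Insig1 by 1.00 ± 0.12 and 0.93 ± 0.12. Insig2 was higher by 0.20 ± 0.08 and 0.19 ± 0.07. Stard4 was lower by 0.25 ± 0.10 in hypoxia and Srebf2 by 0.36 ± 0.13 in normoxia. Of the regulators, 5 were called at each oxygen level, and 3 without WT library 1 in hypoxia or without KO library 2 in normoxia.

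The program stood higher with POVPC than with vehicle in WT cells in normoxia. There 14 of 15 sterol enzymes rose, with a median of 0.90 on the log2 scale or 1.86-fold, against -0.02 over all genes and 13.1% of all genes called higher. Fdps had 96, 86.5 and 96.2 CPM in WT cells given POVPC, against 32.5, 28.7 and 34.3 CPM in WT cells given vehicle. Tm7sf2 had 30.2, 36.6 and 42 CPM with POVPC, against 13.6, 13.2 and 15 CPM with vehicle. Idi1 had 20.4, 19.1 and 19.6 CPM with POVPC, against 7.2, 8.23 and 8.49 CPM with vehicle. The groups lay apart for each, and with Fdft1 these gave the smallest p, Tm7sf2 with 1.38 ± 0.13 (adjusted p = 3.71e-09), Fdps with 1.54 ± 0.14 (adjusted p = 8.57e-09), Idi1 with 1.30 ± 0.13 (adjusted p = 3e-08) and Fdft1 with 1.09 ± 0.12 (adjusted p = 4.3e-08). Dhcr7 did not pass, with 0.21 ± 0.15 (adjusted p = 0.36).

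Of the fatty acid enzymes, 9 of 10 rose with POVPC in WT normoxia (median 0.62), led by Scd1 with 1.35 ± 0.13 (adjusted p = 3.2e-08), Fads1 with 0.77 ± 0.09 (adjusted p = 6.08e-08), Fads2 with 0.88 ± 0.10 (adjusted p = 8.03e-08) and Acss2 with 0.88 ± 0.15 (adjusted p = 7.17e-05). Scd1 had 552, 477 and 487 CPM with POVPC, against 205, 195 and 197 CPM with vehicle. Lpin1 did not pass, with -0.06 ± 0.13 (adjusted p = 0.77). Stard4, Srebf2, Srebf1, Insig2 and Insig1 rose by 1.08 ± 0.11, 0.86 ± 0.13, 0.57 ± 0.08, 0.54 ± 0.08 and 0.44 ± 0.12. Mylip fell, with 29.2, 24.4 and 27.7 CPM with POVPC, against 56.2, 54.3 and 56.4 CPM with vehicle (-1.04 ± 0.09, adjusted p = 1.17e-10). Of 24 other fatty acid genes, 12 rose and 0 fell, Acsl4 by 1.19 and Fads3 by 1.12 among them, and of 13 other sterol genes, 5 rose and 0 fell. The smooth muscle markers summed to 82.0 to 100.2 CPM with POVPC and 313 to 367 CPM with vehicle, and the proliferation markers to 308 to 360 CPM with POVPC and 142 to 161 CPM with vehicle. The macrophage markers, led by Cd14, summed to 53.8 to 63.9 CPM with POVPC and 29.5 to 32.3 CPM with vehicle, and the Schwann cell markers to 687 to 709 CPM and 507 to 528 CPM. Rn45s held 9.4, 3.2 and 11.1% of the counts in WT POVPC normoxia libraries, against 1.5, 1.3 and 1.5% in WT vehicle normoxia libraries. The part of these lists and of Rn45s in the response was not tested. Higher genes were 48.7% of the calls, and 31.4% with library size alone as the scaling, where the all-gene median was -0.13.

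In KO cells in normoxia no member passed the test with POVPC, where edgeR called 0.0414% of all genes, 0.0069% higher and 0.0345% lower. Without adjustment, 4 members had p under 0.05, and DESeq2 called none. The members with the smallest p were Ebp with -0.25 ± 0.11 (adjusted p = 0.66) and Dhcr7 with 0.29 ± 0.16 (adjusted p = 0.68) among the sterol enzymes, Fasn with 0.31 ± 0.15 and Fads2 with 0.22 ± 0.10 among the fatty acid enzymes, and Srebf2 with 0.30 ± 0.13 and Scap with 0.17 ± 0.10 among the regulators. The sterol median was -0.00. The difference of the POVPC responses, KO minus WT, was itself called lower for 13 sterol enzymes (8% of all genes called lower and 8.17% higher), led by Fdps with -1.68 ± 0.19 (adjusted p = 9.36e-07), Fdft1 with -1.21 ± 0.16 (adjusted p = 4.08e-06), Cyp51 with -0.97 ± 0.14 (adjusted p = 4.71e-06) and Tm7sf2 with -1.38 ± 0.20 (adjusted p = 7.76e-06). In that contrast 5 fatty acid enzymes were lower, among them Scd1 with -1.24 ± 0.19 (adjusted p = 3.11e-05), Fads1 with -0.64 ± 0.13 (adjusted p = 0.000403), Fads2 with -0.65 ± 0.14 (adjusted p = 0.0015) and Acss2 with -0.95 ± 0.21 (adjusted p = 0.0021). Of the regulators, 5 were lower, Stard4 with -0.99 ± 0.16 first, and Mylip was higher with 0.94 ± 0.12 (adjusted p = 1.01e-06). With library size alone as the scaling the all-gene median of this contrast was 0.20, higher genes were 73.3% of the calls, against 50.5%, and 3 fatty acid enzymes and 2 regulators were called.

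**Figure D4:**
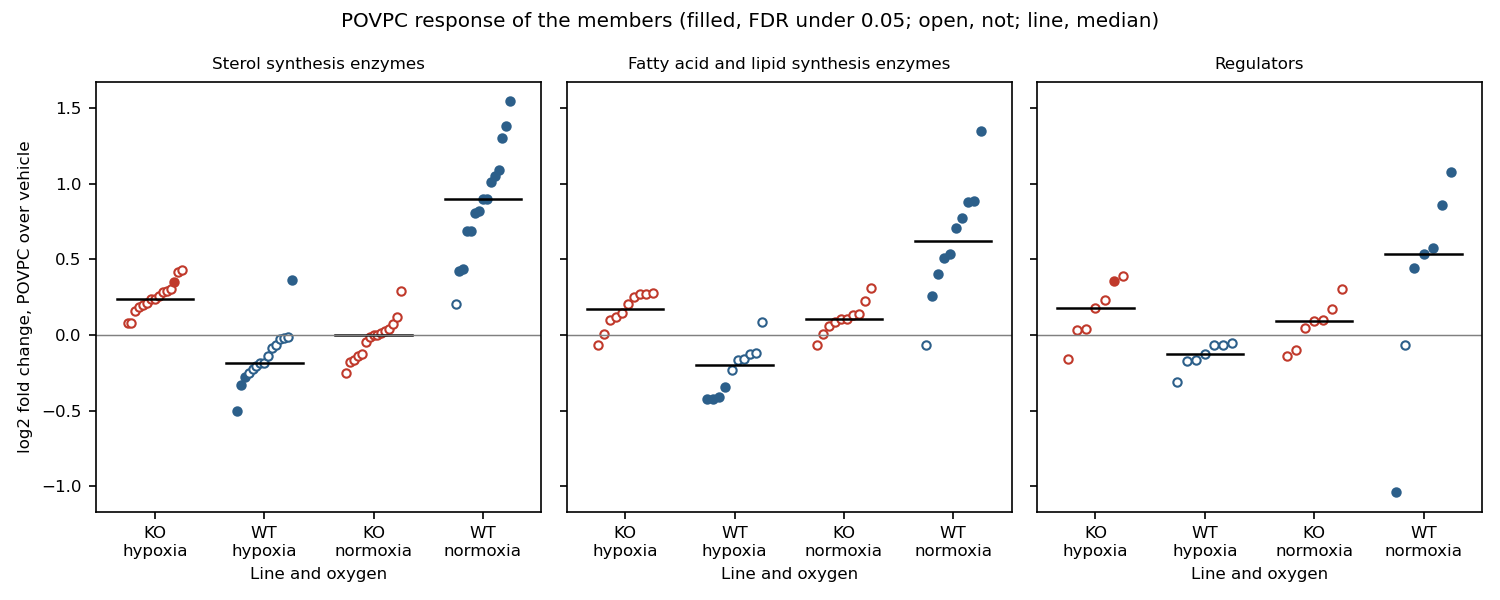
POVPC response of each tested member, as log2 fold change of POVPC over vehicle, by line and oxygen (red, KO; blue, WT; filled, adjusted p under 0.05; open, not; line, median), in a panel for each role. Filled points above 0 fill the WT normoxia column of the sterol panel (14 of 15), whereas the KO normoxia column holds open points only.

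In hypoxia POVPC gave small changes that rested on few libraries. In KO cells, Acat2 and Stard4 rose by 0.35 ± 0.10 (adjusted p = 0.037) and 0.36 ± 0.10 (adjusted p = 0.042), where 4.06% of all genes were called, 1.97% higher and 2.09% lower. Acat2 had 177, 136 and 189 CPM with POVPC in KO hypoxia, against 144, 126 and 122 CPM with vehicle, and Stard4 had 222, 179 and 239 CPM, against 178, 165 and 156 CPM. Both were highest in POVPC libraries 1 and 3. POVPC library 2 overlapped the vehicle libraries for Acat2 and lay just above them for Stard4. Both calls were lost with library size alone as the scaling, or without vehicle library 2 or 3 or POVPC library 1 or 3. Leaving out the 3 shallowest libraries (WT POVPC hypoxia 1 and 2 and KO vehicle hypoxia 3) left WT POVPC hypoxia a single library. In the KO comparison that setting dropped vehicle library 3 alone, but the 8 groups shared a single fit, so calls under it are not given. Without POVPC library 2 of this group, 6 sterol enzymes were called. Higher genes were 48.5% of all calls, and 78.3% with library size alone. The fatty acid enzymes with the smallest p were Acly with 0.27 ± 0.10 (adjusted p = 0.14) and Lpin1 with 0.28 ± 0.12 (adjusted p = 0.21).

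In WT cells in hypoxia, 1 of 15 sterol enzymes rose with POVPC and 3 fell. Of all genes 21% were called, 8.22% higher and 12.7% lower, so the share of sterol enzymes called was near that of all genes. Tm7sf2 gave 0.36 ± 0.13 (adjusted p = 0.047), and the 3 that fell were Dhcr7 with -0.50 ± 0.13 (adjusted p = 0.0079), Sqle with -0.28 ± 0.09 (adjusted p = 0.031) and Fdft1 with -0.33 ± 0.11 (adjusted p = 0.039). Dhcr7 had 42.4, 39.6 and 65 CPM with POVPC, against 72.4, 67.5 and 71.1 CPM with vehicle. The fatty acid enzymes that fell were Fads2 with -0.42 ± 0.10 (adjusted p = 0.0029), Lpin1 with -0.42 ± 0.12 (adjusted p = 0.014), Scd2 with -0.34 ± 0.11 (adjusted p = 0.026) and Scd1 with -0.41 ± 0.13 (adjusted p = 0.027), and Insig1 gave -0.31 ± 0.12 (adjusted p = 0.071) and Insig2 -0.17 ± 0.08 (adjusted p = 0.12). Without the 3 shallowest libraries, which left WT POVPC hypoxia a single library, the sterol median was 0.05, against -0.18 with them. Without library 1 of WT POVPC hypoxia 0 sterol enzymes passed, and without library 3 of WT vehicle hypoxia 1 fatty acid enzyme passed.

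The POVPC response of WT cells differed with oxygen. Hypoxia minus normoxia, it was lower for 15 of 15 sterol enzymes (13.4% of all genes; median -1.02), led by Fdft1 with -1.42 ± 0.16 (adjusted p = 2.65e-07), Acat2 with -1.07 ± 0.14 (adjusted p = 1.14e-06), Fdps with -1.56 ± 0.19 (adjusted p = 1.85e-06) and Cyp51 with -0.99 ± 0.14 (adjusted p = 2.44e-06). It was lower for 9 of 10 fatty acid enzymes, led by Fads2 with -1.30 ± 0.14 (adjusted p = 5.83e-08), Scd1 with -1.76 ± 0.19 (adjusted p = 1.87e-07), Fads1 with -0.90 ± 0.13 (adjusted p = 3.08e-06) and Scd2 with -0.85 ± 0.15 (adjusted p = 0.000162), and for 5 regulators, with Stard4 at -1.15 ± 0.15, while Mylip was higher at 0.97 ± 0.13. Leaving out the 3 shallowest libraries left WT POVPC hypoxia a single library, so the calls of this contrast could not be checked that way. In KO cells no member passed this contrast with edgeR (0.642% of all genes called) or DESeq2, 4 had an unadjusted p under 0.05, and Ebp came nearest with 0.49 ± 0.15 (adjusted p = 0.17). In hypoxia the response of KO minus that of WT was higher for 4 sterol enzymes (9.37% of all genes called, 5.89% higher and 3.48% lower), Dhcr7 with 0.93 ± 0.19 (adjusted p = 0.0022), Acat2 with 0.60 ± 0.14 (adjusted p = 0.0045), Sqle with 0.52 ± 0.13 (adjusted p = 0.010) and Hsd17b7 with 0.60 ± 0.18 (adjusted p = 0.032). It was higher for 5 fatty acid enzymes, led by Lpin1 with 0.70 ± 0.17 (adjusted p = 0.0091), Fads2 with 0.54 ± 0.14 (adjusted p = 0.014), Scd1 with 0.68 ± 0.19 (adjusted p = 0.021) and Acly with 0.50 ± 0.14 (adjusted p = 0.025), and for Insig1 with 0.54 ± 0.17 (adjusted p = 0.046). Leaving out 1 library at a time gave 2 to 9 sterol enzymes, 1 to 6 fatty acid enzymes and 0 to 3 regulators for this contrast. These 10 calls could not be checked without the 3 shallowest libraries, as a single WT POVPC hypoxia library was left. Higher genes with library size alone as the scaling were 57.8% of the calls against 43.0% in the WT contrast with oxygen, 70.0% against 44.1% in the KO contrast, and 80.6% against 62.9% in the contrast of the lines in hypoxia. The hypoxia response of WT vehicle cells, the POVPC response of WT cells in normoxia and the contrasts built on either share the 3 WT vehicle normoxia libraries. They are no independent measurements. The sterol sum of that group averaged 625 CPM, against 827 to 1111 CPM in the other normoxia groups.

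In the lesions no member passed the test between KO and WT animals. The edgeR test called 0 of 14993 genes (0%), with 2216 at an unadjusted p under 0.05, and DESeq2 called 489 genes, none of them a member. In lesion RNA, fewer cells of a type and less RNA per cell cannot be told apart. The program also stood in another order than in culture, with Scd1 at 3314 ± 811 RPKM in KO and 2685 ± 892 RPKM in WT lesions (SD, n = 4), ahead of Fasn at 454 ± 186 and 554 ± 404 RPKM, and Idi1 lowest at 3.91 ± 1.56 and 3.85 ± 1.11 RPKM. The summed adipocyte markers were 4121 to 6012 CPM in KO and 3108 to 4672 CPM in WT lesions, against at most 13.2 CPM in culture, and their part in the levels of Scd1 and Fasn was not tested.

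The sterol enzymes varied widely between animals of each genotype. Their sums were 859, 658, 499 and 250 CPM in KO animals 1 to 4 and 554, 678, 577 and 963 CPM in WT animals 1 to 4, so that KO animal 4 was lowest and WT animal 4 highest and the groups overlapped. Sqle, for example, had 106, 75, 56.3 and 13.7 CPM in KO animals, against 52.6, 89.8, 70.4 and 128 CPM in WT animals. Of 15 sterol enzymes, 13 had a lower fitted value in KO, with a median of -0.29 on the log2 scale, against -0.0086 over all genes. That median was -0.03 without KO animal 4 and -0.09 without WT animal 4, and -0.52 without KO animal 1. The sterol enzymes with the smallest p were Lss with -0.33 ± 0.22 (adjusted p = 0.53) and Mvk with -0.39 ± 0.38 (adjusted p = 0.67).

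Fatty acid enzyme sums were 33400, 22300, 21200 and 17400 CPM in KO animals and 35100, 18600, 13800 and 20000 CPM in WT animals. Animal 1 was highest in each group. The median was -0.21, and 0.16 without WT animal 1. The smallest p were those of Fads2 with -0.52 ± 0.25 (adjusted p = 0.39) and Fads1 with -0.23 ± 0.18 (adjusted p = 0.59). Among the regulators, Srebf2 had 96.8, 84.2, 72.8 and 59.3 CPM in KO animals, against 98.8, 89, 101 and 117 CPM in WT animals (-0.37 ± 0.15, adjusted p = 0.29). Mylip had 75.1, 97.8, 102 and 126 CPM in KO animals, against 74.8, 86.9, 84.1 and 63.7 CPM in WT animals (0.37 ± 0.16, adjusted p = 0.31). These were the members with an unadjusted p under 0.05, and their groups overlapped. No member had groups that did not overlap, where 8.80% of all genes did.

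Summed markers of other cell types were set beside the members. The 11 macrophage markers in the tables summed to 4410, 7650, 6780 and 9950 CPM in KO animals 1 to 4, against 2701 to 4004 CPM in WT animals. Smooth muscle markers summed to 3965 to 5843 CPM in KO and 5586 to 8628 CPM in WT animals, and endothelial markers to 936 to 1114 CPM in KO and 744 to 889 CPM in WT animals. Schwann cell markers overlapped between the groups, at 530, 443, 415 and 304 CPM in KO animals 1 to 4 and 401, 439, 477 and 546 CPM in WT animals 1 to 4, and KO animal 4 was lowest and WT animal 4 highest, as for the sterol enzymes. Their part in the members' levels was not tested. The 5 LXR factors and targets had positive fitted values throughout, with a median of 0.30, Abcg1 at 0.76 (adjusted p = 0.19) and Abca1 at 0.64 (adjusted p = 0.20), and none passed. Of 27 other fatty acid genes and 11 other sterol genes, 0 were called.

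**Figure D5:**
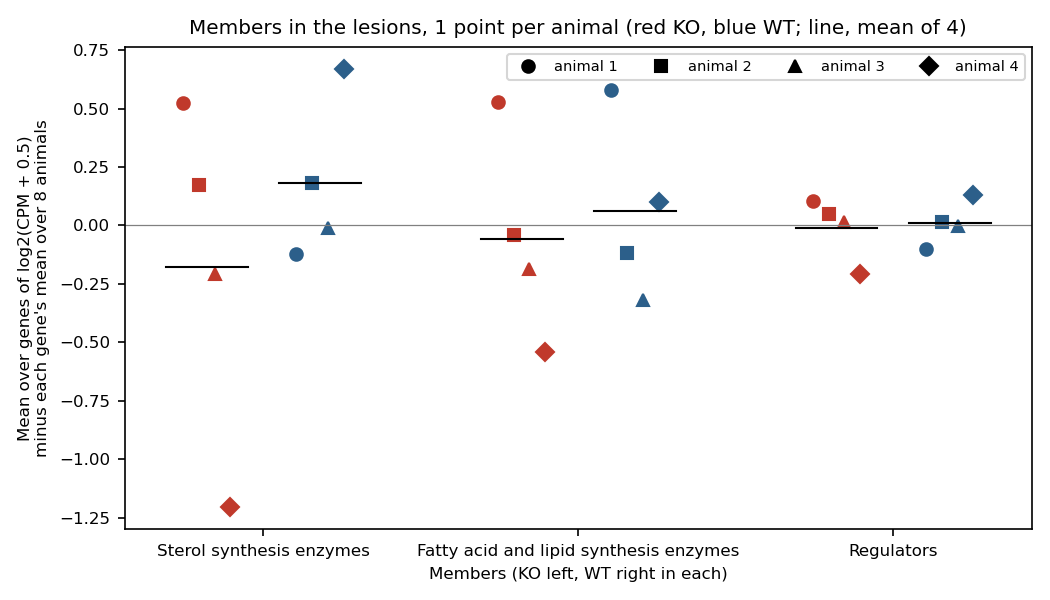
Members in the lesions, 1 point per animal, as the mean over the genes of a role of log2(CPM + 0.5) minus the gene's mean over the 8 animals (red, KO, on the left of each pair; blue, WT; line, mean of 4; marker shape, animal number). For the sterol enzymes KO animal 4 lies lowest at -1.21 and WT animal 4 highest at 0.67, and the groups overlap in all 3 roles.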

How the data were processed

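RNA from 8 lesions and 24 cultures was sequenced on a HiSeq 2000 after Trizol extraction, per the labels' protocols. The deposited tables hold raw counts per gene made by the authors with featureCounts 1.4.4 against the UCSC mm9 annotation, unstranded, per the file headers. Lesion reads were counted as pairs and culture mates separately, per the file headers. The submitters' processing notes also list CASAVA, STAR and DESeq2. Because culture mates were counted apart, culture counts are too large by up to a factor of 2 as a measure of molecules, and a fit on halved counts was run as an alternative.

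From the counts, genes were kept with edgeR's filterByExpr (minimum count 10, minimum total 15), scaled with trimmed means of M values, and tested with edgeR 4.0.16's robust quasi-likelihood test (limma 3.58.1, R 4.3.3). Lesions and cultures were fitted apart, the cultures in a single model of 8 groups. P-values were Benjamini-Hochberg adjusted over all tested genes, and the SE is the fold change divided by the square root of F. The fit was also run on simulated data with 200 changed genes and a single spread for all genes. As the spread of the real genes differs, that run does not measure error rates in these data. RPKM divides CPM by the gene length in the files. Alternatives were other scaling factors, library size alone, DESeq2 1.42.0, no filter, a filter at 5 CPM, the replicate block, halved counts, each library left out in turn, and, added after seeing the data, the 3 shallowest culture libraries or 2 extreme lesions left out. Leaving out those 3 culture libraries left a single library in WT POVPC hypoxia. No 2 libraries of a group agreed within sampling noise.

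Same-numbered libraries were checked for deviations in common: all 3 correlations were over 0.1 only for hypoxia against normoxia in KO cells given POVPC (0.119 to 0.377), and the labels give no pairing. The tests printed here used no pairing in any comparison, that of KO cells given POVPC included. The lesion correlations ran between -0.666 and 0.121.

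All 33 genes are named at least once. In each comparison and role, up to 4 called genes with the smallest p are given, or up to 2 where none was called, with those that went against their role. Members, other pathway lists and marker lists were chosen with earlier results of these data known. Some genes of the other sterol list are not reported here by name.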

Additional observations from a re-analysis of the deposited data

Results flagged for a closer look

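In the lesions, 2 enzymes of fatty acid synthesis had 1 animal far from the other 3 in both groups. Acaca had 724.3 CPM in KO animal 1, against 361.8 to 419.6 CPM in the other KO animals, and 1085 CPM in WT animal 1, against 347.3 to 422.2 CPM in the other WT animals. Fasn had 7269 CPM in KO animal 1, against 3366 to 3924 CPM in the others, and 11510 CPM in WT animal 1, against 3105 to 3762 CPM in the others. Of 70 groups of 4 checked in this way, 4 stood out, and chance alone marks about 1 in 20.

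The hypoxia response under vehicle differed between the lines by the test of the difference, KO minus WT, for 15 sterol enzymes (Acat2 -2.08 on the log2 scale), 10 fatty acid enzymes (Elovl6 -3.79) and 6 regulators (Stard4 -1.84), where 39.1% of all genes were called. With POVPC in both arms it differed for 5 sterol enzymes (Mvd -1.21), 5 fatty acid enzymes (Elovl6 -3.00) and 1 regulator (Stard4 -0.42), where 30% of all genes were called, so that the shares of sterol enzymes and regulators were near or below that of all genes.

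The POVPC response in normoxia differed between KO and WT for 13 sterol enzymes (Fdps -1.68), 5 fatty acid enzymes (Scd1 -1.24) and 6 regulators (Mylip 0.94), where 16.2% of all genes were called. In hypoxia it differed for 4 sterol enzymes (Dhcr7 0.93), 5 fatty acid enzymes (Lpin1 0.70) and 1 regulator (Insig1 0.54), where 9.37% of all genes were called. Leaving out 1 library at a time gave 2 to 9, 1 to 6 and 0 to 3 of these in hypoxia. The setting without the 3 shallowest libraries left a single WT POVPC hypoxia library and could not check them. In WT cells the POVPC response differed between hypoxia and normoxia for 15 sterol enzymes (Fdft1 -1.42), 9 fatty acid enzymes (Fads2 -1.30) and 6 regulators (Stard4 -1.15), where 23.5% of all genes were called.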

How the results depend on the processing

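Of 909 counts of called members under other settings, 836 lay within 1.5 times the main count. No named member reversed in 3166 checks, each of a member in a comparison under another setting. Of these, 3012 left the member on the same side of the threshold, 150 lost a call and 4 gained one. The 200 pairs of member and comparison checked were mostly those with the smallest p in these same data, which favours agreement. The hypoxia responses and their differences under vehicle kept their counts within 1.5 times in every setting. The changes below concern groups given POVPC, except 1 median in the lesions, and the causes were not tested.

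With library size alone, the regulators called fell to 3, against 5, between KO and WT with POVPC in normoxia. For POVPC in WT hypoxia, sterol and fatty acid enzymes called were 1 and 2, against 4 and 4. For POVPC in KO hypoxia, sterol enzymes and regulators called were 0 and 0, against 1 and 1. For the difference of POVPC responses between lines in normoxia, fatty acid enzymes and regulators called were 3 and 2, against 5 and 6, and for that of hypoxia responses under POVPC, regulators were 0, against 1. DESeq2 called 2 sterol enzymes and 2 regulators for POVPC in KO hypoxia. Without the 3 shallowest libraries, which left WT POVPC hypoxia a single library, the sterol median of POVPC in WT hypoxia was 0.0467, against -0.18. Counts of calls under that setting are not given. The difference of the POVPC responses of the lines in hypoxia gave 3 fatty acid enzymes with no filter, against 5. It gave 0 regulators with relative log expression factors or halved counts, against 1. In the lesions the fatty acid median was 0.31 without KO animal 4 and WT animal 1, against -0.21.

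Leaving out 1 library at a time, KO against WT with POVPC gave 3 to 5 regulators in normoxia and 3 to 5 in hypoxia. POVPC in WT hypoxia gave 0 to 5 sterol enzymes, 1 to 6 fatty acid enzymes and 0 to 2 regulators. POVPC in KO hypoxia gave 0 to 6 sterol enzymes, 0 to 2 fatty acid enzymes and 0 to 3 regulators. The difference of the lines in hypoxia gave 2 to 9, 1 to 6 and 0 to 3, and that of hypoxia responses under POVPC gave 3 to 7 sterol enzymes and 0 to 2 regulators.

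With the replicate block, 1 regulator was called for POVPC in WT hypoxia, against 0, and 2 sterol enzymes in KO hypoxia, against 1. The block was a term for the replicate number shared by all groups of a table, so it did not test a pairing of 2 groups alone. For hypoxia against normoxia in KO cells given POVPC, it moved no count by over 1.5 times.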
